A study of Mus musculus with 16 samples.

Results

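Amino acid breakdown in the liver was followed through 49 genes chosen by name for their pathway: the urea cycle, the transaminases that feed it, and the enzymes that degrade histidine, proline, tyrosine, tryptophan, lysine, glycine, the branched-chain amino acids, methionine, cysteine and the pyrimidine bases. Of these, 45 had a probe set annotated to that gene alone, among 18193 genes so represented on the array. Gls2, Sds, Sdsl and Amt had none and are not analysed here. Each gene was read through its brightest probe set, as the log2 of the GCRMA intensity, and 43 of the 45 had a mean log2 intensity above 6. The members were chosen with earlier results of these data known, so their counts beside those of all genes are description only.

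Livers came from male mice aged 12 to 20 weeks, with 1 Affymetrix mouse genome 430 2.0 array per mouse and 4 mice in each of 4 groups. Wild-type (WT) mice were 129S1/SvImJ and PPARα-null (KO) mice were 129S4/SvJae. Both genotypes received either normal food or food holding 0.1% Wy14643, a synthetic PPARα agonist, for 5 days. The null allele was carried in all cells rather than in hepatocytes alone, and the genotypes also differ in substrain, so that in every genotype comparison the allele and the substrain cannot be told apart.

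Amino acids that are not used for protein are stripped of their nitrogen in the liver, and the carbon skeletons go on to glucose, ketone bodies or carbon dioxide. The nitrogen leaves hepatocytes as urea, which is built by a cycle of mitochondrial and cytosolic enzymes that lies mainly in the periportal part of the lobule. PPARα is a nuclear receptor that is activated by fatty acids and fibrate drugs and is best known for turning on fatty acid oxidation.

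The arrays had closely matched medians, at 2.15 to 2.24 on the log2 scale. Over probe sets with a mean above 4, arrays of the same group correlated at 0.975 to 0.991, and the WT arrays on Wy14643 stood apart from the arrays of the other groups at 0.877 to 0.914. Ppara, the targeted gene, has 3 probe sets. On control food the brightest read 9.77 to 10.07 in WT and 8.82 to 9.71 in KO livers, the next 8.93 to 9.16 and 7.44 to 7.91, and the dimmest 7.41 to 7.96 and 5.92 to 6.49. On Wy14643 they read 10.70 to 10.82, 9.64 to 9.83 and 8.45 to 8.70 in WT livers, and 9.35 to 10.04, 8.03 to 8.71 and 5.90 to 6.75 in KO livers. Within each food all 3 were higher in every WT array than in every KO array, while the brightest probe set of treated KO livers overlapped the WT controls. Where these probe sets lie relative to the deleted part of the gene was not established. All 8 measured hepatocyte markers had means above the array medians in every group.

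Most of the amino acid genes that moved went down, and they did so in WT livers on Wy14643. In WT mice, 24 of the 45 members fell on Wy14643 and 2 rose, at a limma adjusted p under 0.01 and a fold over 1.5. Over all genes, 6.74% were called lower and 7.72% higher in that comparison, and among genes with a mean log2 intensity above 6 the shares were 15.9% and 12.4%. The median log2 difference of the members was -0.74, against -0.03 over all genes. Hal, which opens histidine breakdown, fell most, and Csad, which makes the taurine precursor hypotaurine, rose most. In KO mice no member passed the test in either direction. The plot of both responses by pathway shows the members one by one.

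**Figure D1:**
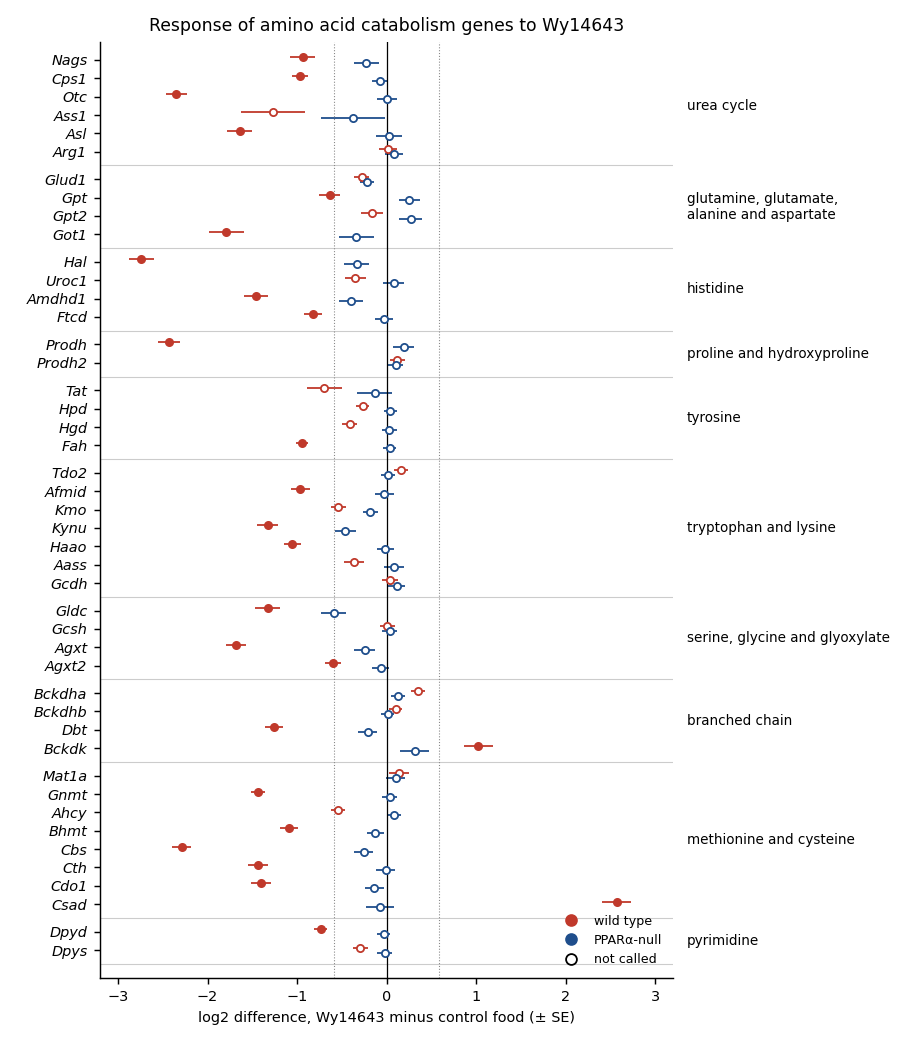
The log2 difference between Wy14643 and control food (horizontal axis, points with SE bars, 4 arrays against 4) is drawn for each of the 45 measured members, grouped by pathway, in wild-type livers (red) and PPARα-null livers (blue). Filled points passed the test, open points did not, and dotted lines mark a fold of 1.5. The filled points are all red, from -2.74 for Hal to 2.57 for Csad, while the blue points lie between -0.59 and 0.31.

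The upstream DNA of the members that moved furthest is shown to give the sequence context of the largest changes. These are the 250 bases before the annotated start of the 4 members with the largest falls and of the member with the largest rise, chosen by the size of the change in WT livers and not for what they hold. They come from RefSeq on GRCm38.p6, run 5′ to 3′ in the direction of the gene, and carry in capitals any match to the 4 motifs described next. The Hal stretch is chr10:93488518-93488767 on the plus strand, that of Prodh is chr16:18089191-18089440 on the minus strand, that of Otc is chrX:10252055-10252304 on the plus strand, that of Cbs is chr17:31637206-31637455 on the minus strand and that of the upstream start of Csad is chr15:102205053-102205302 on the minus strand.
Hal promoter: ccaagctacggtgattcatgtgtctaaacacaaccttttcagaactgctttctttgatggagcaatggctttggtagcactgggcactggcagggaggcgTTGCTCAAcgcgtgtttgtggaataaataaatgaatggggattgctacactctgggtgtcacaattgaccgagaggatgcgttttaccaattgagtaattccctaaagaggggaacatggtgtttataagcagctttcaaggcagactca
Prodh promoter: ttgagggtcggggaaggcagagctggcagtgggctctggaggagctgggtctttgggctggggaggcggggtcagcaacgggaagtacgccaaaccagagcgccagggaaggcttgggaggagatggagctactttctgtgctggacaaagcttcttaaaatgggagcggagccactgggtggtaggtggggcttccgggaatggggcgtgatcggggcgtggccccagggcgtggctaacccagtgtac
Otc promoter: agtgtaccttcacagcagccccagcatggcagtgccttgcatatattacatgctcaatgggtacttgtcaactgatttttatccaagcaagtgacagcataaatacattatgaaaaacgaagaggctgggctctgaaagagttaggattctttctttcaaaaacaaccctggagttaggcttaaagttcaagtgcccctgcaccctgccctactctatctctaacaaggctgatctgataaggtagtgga
Cbs promoter: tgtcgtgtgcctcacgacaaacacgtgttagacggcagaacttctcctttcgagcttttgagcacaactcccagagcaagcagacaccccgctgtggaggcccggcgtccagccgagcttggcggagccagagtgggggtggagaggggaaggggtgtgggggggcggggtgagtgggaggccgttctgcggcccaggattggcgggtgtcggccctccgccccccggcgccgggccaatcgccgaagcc
Csad promoter: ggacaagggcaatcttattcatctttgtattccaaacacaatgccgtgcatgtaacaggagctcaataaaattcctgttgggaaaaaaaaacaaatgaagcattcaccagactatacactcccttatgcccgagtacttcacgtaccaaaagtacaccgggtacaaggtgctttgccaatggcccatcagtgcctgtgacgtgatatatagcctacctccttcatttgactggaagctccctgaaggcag

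Of these stretches, Hal alone holds a match, a C/EBP-type TTGCTCAA at positions -150 to -143 from the start. Matches to 4 motif types were searched on both strands in 38 promoters of 35 members and in all 32841 promoters. The DR1 type, AGGTCA, any 1 base, AGGTCA with up to 2 mismatches, is the kind of site that PPARα and its partner RXR bind. It was found in 1 of 18 promoters of members that fell in WT livers, 0 of 3 promoters of members that rose, 3 of 17 promoters of members not called and 3.24% of all promoters. The HNF4 type, CAAAGTCCA with up to 1 mismatch, is a relative of the DR1 type and can overlap it. It was found in 5 of 18, 0 of 3 and 3 of 17, against 7.06% of all promoters, and 2 of the 5 are overlapping stretches of Agxt2. The C/EBP type, TTGC, any 2 bases, AA, was found in 1 of 18, 0 of 3 and 4 of 17, against 9.57%. The glucocorticoid receptor type, AGAACA, any 3 bases, TGTTCT with up to 2 mismatches, was in none of these member promoters and in 1.56% of all. A match describes the letters of the stretch and is not a binding site, and these counts were not tested.

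In the urea cycle, 4 of 6 measured members fell in WT livers on Wy14643 and none rose. Otc, ornithine transcarbamylase, joins carbamoyl phosphate to ornithine inside the mitochondrion. Its log2 intensity was 9.40, 9.26, 9.74 and 9.00 in the WT arrays on Wy14643 and 11.63, 11.73, 11.69 and 11.75 in those on control food. In KO livers Otc read 11.61, 11.65, 11.69 and 11.68 on Wy14643 and 11.68, 11.66, 11.62 and 11.64 on control food. The highest treated WT array lay 1.86 log2 units below the lowest of the 12 others, which spanned only 0.14. Otc was 5.09-fold lower on Wy14643 in WT mice (log2 difference -2.35 ± 0.12, SE, adjusted p = 7.87e-11), and all 3 of its probe sets were called lower.

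Asl, argininosuccinate lyase, releases arginine and fumarate in the cytosol. It read 9.49, 9.43, 9.48 and 10.16 in WT livers on Wy14643, 11.22, 11.32, 11.51 and 11.07 on control food, 11.00, 11.14, 11.11 and 11.19 in KO livers on Wy14643 and 11.24, 11.10, 11.10 and 10.91 in KO livers on control food. The treated WT arrays were the lowest of the 16, with replicate 4 well above its 3 group mates. Asl fell 3.12-fold in WT livers (-1.64 ± 0.14, adjusted p = 1.25e-07).

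Cps1, carbamoyl-phosphate synthase, is the entry step for ammonia. It read 11.53, 11.55, 11.45 and 11.85 in treated WT livers, 12.48, 12.61, 12.58 and 12.59 in WT controls and 12.32 to 12.52 over the 8 KO arrays. Nags, which makes the N-acetylglutamate that Cps1 needs as its activator, read 6.97, 6.69, 6.92 and 7.26 and 8.08, 7.96, 7.78 and 7.79 in the same WT groups and 7.58 to 8.17 over the KO arrays. For both genes the treated WT arrays lay below every other array. The falls were 1.96-fold for Cps1 (-0.97 ± 0.09, adjusted p = 2.80e-07) and 1.92-fold for Nags (-0.94 ± 0.14, adjusted p = 6.59e-05).

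Arg1, the arginase that splits off urea and closes the cycle, was not called. It read 12.68, 12.68, 12.70 and 12.87 in treated WT livers and 12.52, 12.85, 12.87 and 12.62 in WT controls, groups that overlap, with a log2 difference of 0.01 ± 0.10 (adjusted p = 0.948). Ass1, argininosuccinate synthase, was measured only by a dim probe set, at a mean of 2.71 ± 0.20 (SD) in treated WT livers and 3.97 ± 0.69 in WT controls. Its difference of -1.27 ± 0.36 did not pass the test (adjusted p = 0.0165), and the KO arrays on Wy14643 spread from 2.16 to 4.00.

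**Figure D2:**
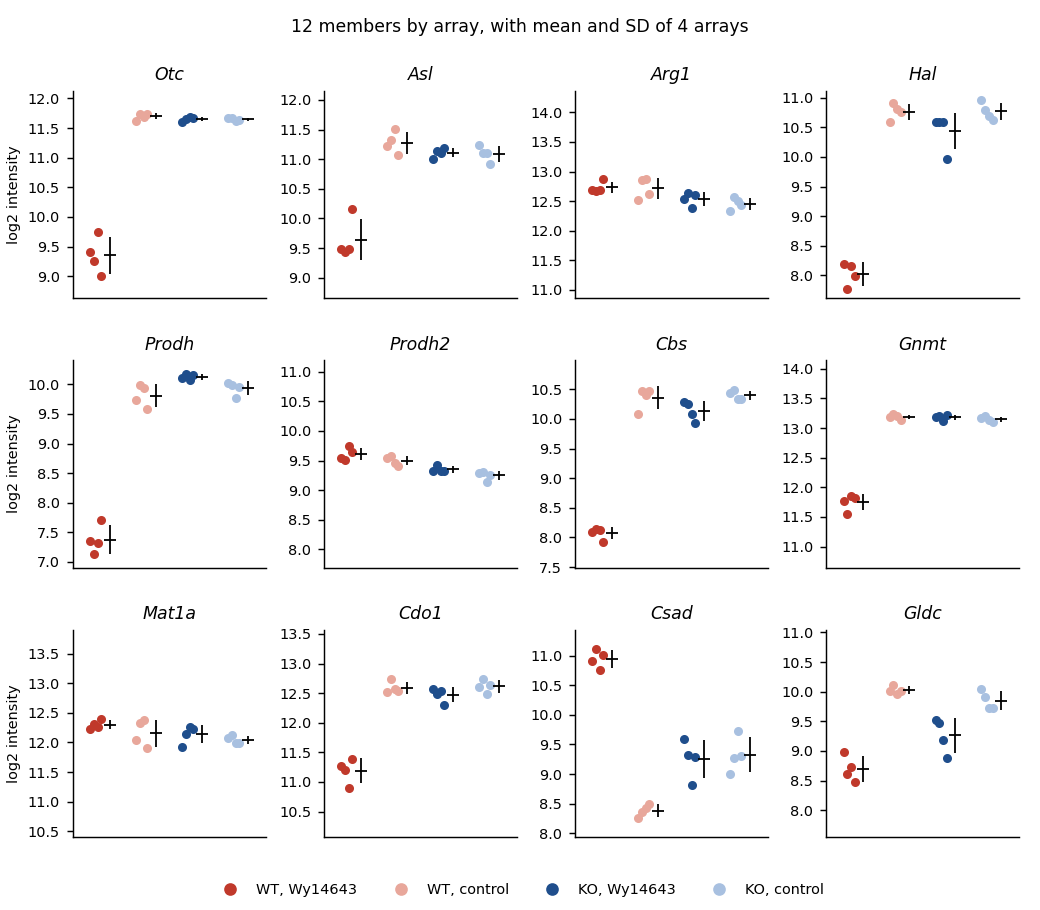
Log2 intensity (vertical axis, a span of 3.5 log2 units in each panel) of 12 members in each of the 16 arrays, by group, with the mean and SD of 4 arrays beside the points. Otc, Asl, Hal, Prodh, Cbs, Gnmt and Cdo1 are low in the wild-type livers on Wy14643 alone, Csad is high there, Arg1, Prodh2 and Mat1a were called in no comparison, and for Gldc the null livers on Wy14643 reach down to 8.87, into the range of the treated wild-type livers.

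The enzymes that move nitrogen between amino acids and the cycle had 2 of 4 members called lower. Got1, the cytosolic aspartate aminotransferase, moves amino groups between glutamate and aspartate. It read 9.29, 9.39, 8.98 and 9.99 in treated WT livers, 11.08, 11.37, 11.52 and 10.84 in WT controls, 10.50, 10.75, 10.82 and 10.90 in treated KO livers and 11.24, 11.29, 11.13 and 10.66 in KO controls. The treated WT arrays were below all others, and Got1 fell 3.46-fold (-1.79 ± 0.20, adjusted p = 2.16e-06). Gpt, the cytosolic alanine aminotransferase, read 8.92, 8.69, 8.97 and 9.08 in treated WT livers, 9.51, 9.74, 9.67 and 9.28 in WT controls and 9.41 to 10.03 over the KO arrays. Here too the treated WT arrays were the lowest, but on this brighter probe set the fall was only 1.56-fold (-0.64 ± 0.12, adjusted p = 0.000676). It no longer passed a fold of 1.5 without WT_Wy replicate 2 (-0.56) or WT_control replicate 2 (-0.58). The dimmer Gpt probe set was also called lower, at 2.66-fold (-1.41 ± 0.16, adjusted p = 2.33e-06). The mitochondrial paralog of Gpt, Gpt2, was not called (-0.16 ± 0.12, adjusted p = 0.441), and the difference between the paralogs was not tested. Glud1, glutamate dehydrogenase, was not called either (-0.28 ± 0.08, adjusted p = 0.0172). Its dimmer probe set passed the p threshold but not the fold (-0.44 ± 0.08, adjusted p = 0.000642).

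In histidine breakdown, 3 of 4 members fell. Hal, histidase, deaminates histidine to urocanate. It read 8.20, 7.76, 8.15 and 7.98 in treated WT livers, 10.58, 10.91, 10.80 and 10.76 in WT controls, 10.59, 10.59, 10.59 and 9.97 in treated KO livers and 10.97, 10.79, 10.70 and 10.63 in KO controls. The highest treated WT array stood 1.77 log2 units below the lowest of the others, which was KO_Wy replicate 4. Hal fell 6.68-fold (-2.74 ± 0.14, adjusted p = 1.38e-10). Amdhd1, imidazolonepropionase, read 8.92, 8.70, 8.90 and 8.50 in treated WT livers, 10.11, 10.34, 10.14 and 10.25 in WT controls and 9.24 to 10.15 over the KO arrays. Ftcd, which passes the formimino group to folate, read 10.87, 10.56, 11.00 and 10.83, 11.55, 11.70, 11.64 and 11.65 and 11.42 to 11.70 in the same order. Both were lowest in the treated WT arrays, by 2.75-fold for Amdhd1 (-1.46 ± 0.13, adjusted p = 1.98e-07) and 1.77-fold for Ftcd (-0.82 ± 0.10, adjusted p = 6.23e-06). Uroc1, urocanase, lies between Hal and Amdhd1 and was not called on its brighter probe set (-0.35 ± 0.12, adjusted p = 0.04), while its dimmer one was called lower (-0.97 ± 0.20, adjusted p = 0.00198), so the probe sets disagree.

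Proline and hydroxyproline are opened by paralogous enzymes, Prodh and Prodh2, and only Prodh was called. Prodh, proline dehydrogenase, read 7.36, 7.13, 7.32 and 7.70 in treated WT livers, 9.73, 9.98, 9.94 and 9.58 in WT controls, 10.10, 10.18, 10.07 and 10.16 in treated KO livers and 10.03, 9.99, 9.77 and 9.95 in KO controls. The treated WT arrays were at least 1.87 log2 units below all others, a 5.4-fold fall (-2.43 ± 0.12, adjusted p = 6.84e-11). Prodh2, hydroxyproline dehydrogenase, read 9.55, 9.52, 9.74 and 9.64 and 9.54, 9.58, 9.46 and 9.41 in the WT groups, which overlap, and was not called (0.12 ± 0.08, adjusted p = 0.387). The difference between Prodh and Prodh2 was not itself tested.

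Of the 4 tyrosine enzymes only the last, Fah, fumarylacetoacetate hydrolase, was called. It read 10.81, 10.70, 10.85 and 10.85 in treated WT livers, 11.73, 11.76, 11.78 and 11.73 in WT controls and 11.73 to 11.84 over the KO arrays. The 12 arrays outside the treated WT group spanned 0.12 log2 units, and Fah fell 1.93-fold (-0.95 ± 0.07, adjusted p = 1.91e-08). Hgd, homogentisate dioxygenase, passed the p threshold but not the fold (-0.41 ± 0.08, adjusted p = 0.00133). Tat, tyrosine aminotransferase, had a difference of -0.70 ± 0.20 (adjusted p = 0.0175) and Hpd, 4-hydroxyphenylpyruvate dioxygenase, of -0.27 ± 0.07 (adjusted p = 0.0134).

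In the kynurenine pathway of tryptophan, 3 members fell. Afmid, kynurenine formamidase, read 8.61, 8.44, 8.84 and 8.66 in treated WT livers, 9.50, 9.87, 9.66 and 9.40 in WT controls and 9.64 to 9.83 over the KO arrays. Kynu, kynureninase, read 8.80, 8.67, 8.57 and 8.26, 9.81, 9.92, 9.85 and 10.05 and 9.29 to 10.08 in that order. Haao, which opens the ring of 3-hydroxyanthranilate on the way to NAD, read 9.96, 9.78, 9.83 and 9.69, 10.66, 10.99, 10.98 and 10.86 and 10.63 to 10.89. For each the treated WT arrays were the lowest of the 16. The falls were 1.95-fold for Afmid (-0.97 ± 0.11, adjusted p = 2.30e-06), 2.51-fold for Kynu (-1.33 ± 0.12, adjusted p = 1.35e-07) and 2.08-fold for Haao (-1.05 ± 0.10, adjusted p = 2.26e-07). Of the other Afmid probe sets, the brightest was also called lower (-0.88) and the dim ones were not called (-0.11 and -0.15). The other Kynu probe set, a dim one, passed the p threshold but not the fold (-0.52). Tdo2, tryptophan dioxygenase, the first and rate-limiting step, was not called (0.16 ± 0.07, adjusted p = 0.155), and its other probe sets gave differences of -0.15 and -0.13. Kmo, kynurenine monooxygenase, passed the p threshold but not the fold (-0.54 ± 0.08, adjusted p = 6.36e-05). In lysine breakdown, neither Aass (-0.36 ± 0.11, adjusted p = 0.0309) nor Gcdh (0.04 ± 0.09, adjusted p = 0.851) was called in WT livers.

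Among the glycine and glyoxylate enzymes, 3 of 4 fell. Agxt, the peroxisomal alanine-glyoxylate aminotransferase, read 9.39, 9.36, 9.38 and 8.89 in treated WT livers, 10.82, 11.08, 10.88 and 10.98 in WT controls, 10.86, 10.95, 10.90 and 10.66 in treated KO livers and 11.14, 11.14, 11.17 and 10.91 in KO controls. Treated WT livers were lowest, and Agxt fell 3.21-fold (-1.68 ± 0.12, adjusted p = 7.16e-09). Agxt2, the mitochondrial alanine-glyoxylate aminotransferase, read 9.59, 9.40, 9.49 and 9.27 in treated WT livers, 10.04, 10.08, 9.95 and 10.09 in WT controls and 10.00 to 10.34 over the KO arrays. That fall was just past the fold threshold, at 1.52-fold (-0.60 ± 0.09, adjusted p = 9.48e-05), and was not called without WT_Wy replicate 4 (-0.54) or WT_control replicate 4 (-0.58). Gldc, the decarboxylase of the glycine cleavage system, read 8.99, 8.61, 8.72 and 8.47 in treated WT livers, 10.01, 10.12, 9.96 and 10.02 in WT controls, 9.51, 9.47, 9.19 and 8.87 in treated KO livers and 10.04, 9.92, 9.72 and 9.72 in KO controls. The treated WT group was separate from its own control but overlapped the treated KO group. Gldc fell 2.51-fold in WT livers (-1.33 ± 0.14, adjusted p = 1.18e-06), and in KO livers it showed the most negative difference of all members (-0.59 ± 0.14, adjusted p = 0.13), which did not pass the test. Gcsh, the H protein of the same complex, was not called (0.00 ± 0.08, adjusted p = 0.981).

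The branched-chain ketoacid dehydrogenase commits leucine, isoleucine and valine to oxidation, and among its measured subunits only Dbt was called. Dbt, the E2 core, read 7.42, 7.12, 7.39 and 7.27 in treated WT livers, 8.54, 8.66, 8.51 and 8.52 in WT controls and 8.49 to 9.09 over the KO arrays. It was lowest in the treated WT arrays and fell 2.39-fold (-1.26 ± 0.10, adjusted p = 4.93e-08). Of the E1 subunits, Bckdhb was not called (0.10 ± 0.07, adjusted p = 0.396), and Bckdha passed the p threshold with a fold under 1.5 (0.35 ± 0.08, adjusted p = 0.00309). Bckdk, the kinase that switches the complex off, read 5.27, 5.03, 5.01 and 5.33 in treated WT livers, 3.93, 4.00, 4.28 and 4.34 in WT controls and 3.61 to 4.72 over the KO arrays. It rose 2.03-fold (1.02 ± 0.16, adjusted p = 0.000141) on a dim probe set, and its still dimmer one was not called.

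Methionine is turned into S-adenosylmethionine, then homocysteine, which is either remethylated or sent through cystathionine to cysteine. Along this route 5 of 8 members fell and 1 rose. Mat1a, which makes S-adenosylmethionine, was not called (0.14 ± 0.11, adjusted p = 0.453). Gnmt, glycine N-methyltransferase, which uses up excess S-adenosylmethionine, read 11.77, 11.55, 11.86 and 11.82 in treated WT livers, 13.18, 13.23, 13.20 and 13.13 in WT controls, 13.18, 13.20, 13.12 and 13.23 in treated KO livers and 13.17, 13.20, 13.13 and 13.10 in KO controls. The 12 other arrays spanned 0.13 log2 units, all above the treated WT arrays, and Gnmt fell 2.7-fold (-1.43 ± 0.08, adjusted p = 4.90e-10). Ahcy, which cleaves S-adenosylhomocysteine, passed the p threshold but not the fold (-0.55 ± 0.08, adjusted p = 3.53e-05). Bhmt, which remethylates homocysteine with betaine, read 12.54, 12.36, 12.19 and 12.55 in treated WT livers, 13.47, 13.52, 13.45 and 13.56 in WT controls and 13.30 to 13.70 over the KO arrays, a 2.13-fold fall (-1.09 ± 0.10, adjusted p = 1.94e-07).

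Cbs, cystathionine beta-synthase, takes homocysteine out of the methionine cycle. It read 8.09, 8.15, 8.12 and 7.93 in treated WT livers, 10.08, 10.48, 10.41 and 10.48 in WT controls, 10.29, 10.25, 10.09 and 9.93 in treated KO livers and 10.43, 10.50, 10.34 and 10.33 in KO controls. The treated WT arrays were at least 1.78 log2 units below all others, and Cbs fell 4.89-fold (-2.29 ± 0.11, adjusted p = 4.07e-11), with both probe sets called. Cth, cystathionine gamma-lyase, the next enzyme, read 10.71, 10.66, 10.46 and 10.90, 12.08, 12.35, 12.16 and 11.89 and 12.12 to 12.29 in treated WT, control WT and all KO arrays. It fell 2.71-fold (-1.44 ± 0.11, adjusted p = 1.69e-08).

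Cysteine is oxidised by Cdo1 and then decarboxylated by Csad on the way to taurine, and these neighbours moved in opposite directions. Cdo1, cysteine dioxygenase, read 11.26, 11.20, 10.89 and 11.39 in treated WT livers, 12.52, 12.74, 12.56 and 12.54 in WT controls, 12.57, 12.49, 12.54 and 12.29 in treated KO livers and 12.60, 12.73, 12.48 and 12.64 in KO controls. Treated WT livers were lowest, a 2.65-fold fall (-1.41 ± 0.11, adjusted p = 2.56e-08). Csad, cysteine sulfinate decarboxylase, read 10.90, 11.12, 10.76 and 11.02 in treated WT livers and 8.25, 8.36, 8.43 and 8.49 in WT controls. In KO livers it read 9.60, 9.33, 8.81 and 9.28 on Wy14643 and 9.00, 9.28, 9.73 and 9.31 on control food. The treated WT arrays were the highest and the WT controls the lowest of the 16, with all KO arrays in between. Csad rose 5.92-fold (2.57 ± 0.16, adjusted p = 1.61e-09).

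Of the pyrimidine enzymes, Dpyd, dihydropyrimidine dehydrogenase, read 10.83, 10.75, 10.77 and 10.85 in treated WT livers, 11.52, 11.59, 11.52 and 11.53 in WT controls and 11.53 to 11.66 over the KO arrays. It was lowest in the treated WT arrays and fell 1.66-fold (-0.74 ± 0.07, adjusted p = 5.22e-07). The next brightest Dpyd probe set was also called lower (-0.77), while the dimmest was not called (0.04). Dpys, dihydropyrimidinase, the next step, was not called (-0.30 ± 0.08, adjusted p = 0.0152). Its next brightest probe set passed the p threshold but not the fold (-0.34 ± 0.08, adjusted p = 0.00683), and its dimmest passed neither (-0.29 ± 0.14, adjusted p = 0.165).

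**Figure D3:**
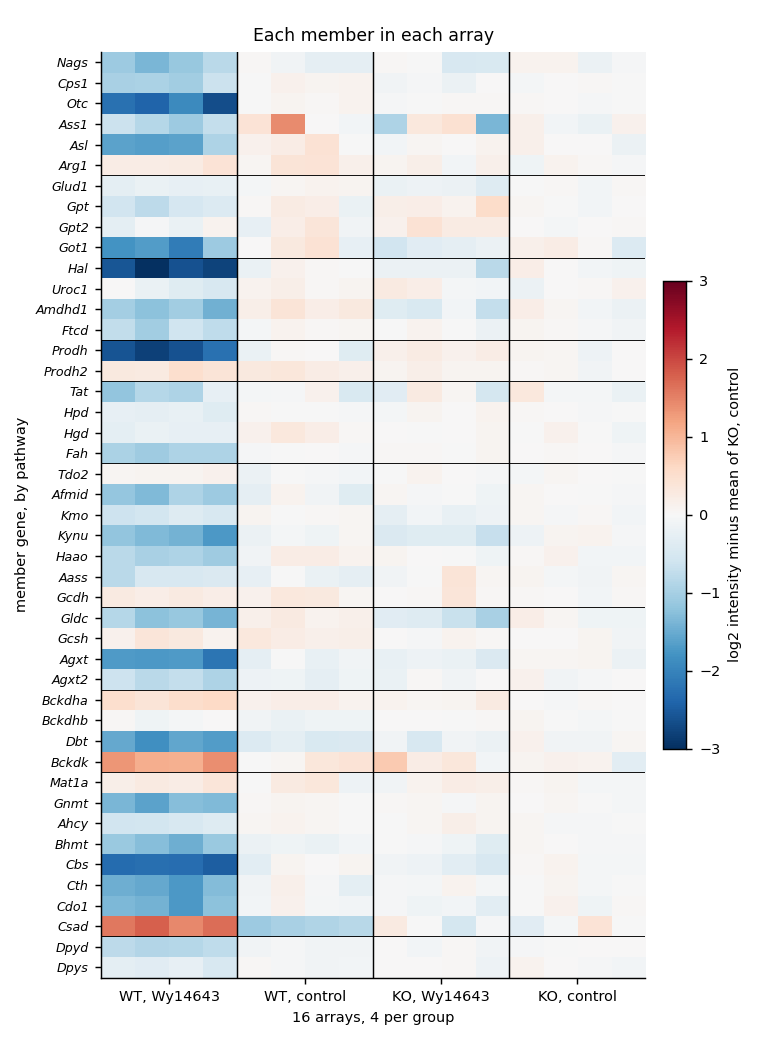
Each row is a measured member and each column is 1 of the 16 arrays, and the colour gives the log2 intensity minus the mean of the 4 null livers on control food (blue lower, red higher). The 4 wild-type livers on Wy14643 form a mostly blue block, with Csad and Bckdk red, and Csad is blue in the wild-type livers on control food.

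In KO livers, Wy14643 left no member past the test. The count was 0 higher and 0 lower, against 0.0275% and 0% of all genes, and differences ran from -0.59 for Gldc to 0.31 for Bckdk with a median of -0.02. At an unadjusted p under 0.05 in limma, 2 members were higher (Gpt and Gpt2) and 7 lower (Glud1, Hal, Amdhd1, Kmo, Kynu, Gldc and Cbs). The share of all genes at that threshold was not counted, so these numbers have no background to be read against. Kynu (-0.46 ± 0.12, adjusted p = 0.166) and Amdhd1 (-0.40 ± 0.13, adjusted p = 0.319) had the most negative values after Gldc. A p that misses the threshold does not show that these genes stayed level.

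Whether the WT response differed from the KO response was tested directly as the interaction of genotype and food. The WT response was lower than the KO response for 22 members and higher for 1, Csad, against 4.62% and 5.38% of all genes and 12.6% and 9.85% of genes with a mean above 6. The difference of responses was -2.62 ± 0.17 for Prodh (adjusted p = 7.13e-09), -2.40 ± 0.20 for Hal (adjusted p = 1.94e-07) and -2.35 ± 0.16 for Otc (adjusted p = 2.08e-08). Csad stood at 2.64 ± 0.22 (adjusted p = 2.45e-07). Ahcy, which missed the fold threshold in WT livers, passed here (-0.63 ± 0.11, adjusted p = 0.000574). Of the members called in the WT response, Nags (-0.71 ± 0.20, adjusted p = 0.0228), Gldc (-0.74 ± 0.20, adjusted p = 0.0179), Agxt2 (-0.53 ± 0.13, adjusted p = 0.0105) and Bckdk (0.71 ± 0.23, adjusted p = 0.0558) did not pass.

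Between genotypes on Wy14643, 24 members were lower and 2 higher in WT than in KO livers, against 7.13% and 8.12% of all genes and 16% and 13.5% of genes with a mean above 6. This comparison shares the treated WT arrays with the WT response, so the comparisons are not independent. Prodh was 6.73-fold lower in WT livers (-2.75 ± 0.12, adjusted p = 9.76e-12), Hal 5.32-fold (-2.41 ± 0.14, adjusted p = 6.75e-10), Otc 4.93-fold (-2.30 ± 0.12, adjusted p = 8.68e-11) and Cbs 4.2-fold (-2.07 ± 0.11, adjusted p = 1.27e-10). Csad was 3.24-fold higher (1.70 ± 0.16, adjusted p = 2.77e-07) and Bckdk 1.88-fold (0.91 ± 0.16, adjusted p = 0.000412). Aass, the entry enzyme of lysine breakdown, was called in this comparison and not in the WT response. It read 9.99, 10.31, 10.31 and 10.37 in treated WT livers and 10.69, 10.79, 11.18 and 10.85 in treated KO livers (-0.63 ± 0.11, adjusted p = 0.000476), and the call was lost without WT_Wy replicate 1 (-0.54) or KO_Wy replicate 3 (-0.53). Gldc was past the p threshold but under the fold (-0.56 ± 0.14, adjusted p = 0.00625).

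On control food Csad alone was called, 1.93-fold lower in WT than in KO livers (-0.95 ± 0.16, adjusted p = 0.00521), so that 0 members were higher and 1 lower, against 0.401% and 0.143% of all genes. The Csad call was lost without any single one of 7 arrays, among them all 4 WT controls. At an unadjusted p under 0.05 in limma, 4 members were higher in WT livers (Arg1, Prodh2, Gcdh and Gcsh) and 2 lower (Dbt and Csad). Here too the share of all genes at that threshold was not counted, so these numbers have no background. Dbt gave -0.40 ± 0.10 (adjusted p = 0.117), with the WT arrays below the KO arrays.

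Further genes of the same pathways were counted as whole lists in WT livers on Wy14643, and the plot of calls by list shows them beside the members. The background for these counts is again 6.74% lower and 7.72% higher over all genes, and 15.9% and 12.4% among genes with a mean log2 above 6. For the branched-chain partners and the regulators the share of lower calls was near that of those brighter genes. The lists were not limited to genes with a mean above 6, and no list was tested against the background. Among urea cycle and nitrogen partners, 3 of 13 measured genes fell and 0 rose, at -0.97 for Slc25a15, the mitochondrial ornithine carrier, -0.77 for Agmat and -0.60 for Oat, ornithine aminotransferase. Of the aromatic and histidine partners, 3 of 13 fell and 0 rose, at -1.89 for Ido2, -1.19 for Ddc and -0.69 for Kyat1. Serine, glycine and folate partners had 5 of 14 lower and 1 higher, with Pipox at -1.80, the sarcosine dehydrogenase Sardh at -1.52 and the folate enzyme Aldh1l1 at -1.46. The higher gene was Grhpr, glyoxylate reductase, at 0.77.

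Among branched-chain and propionate partners, 2 of 18 fell, Bcat2 at -1.84 and Acadsb at -1.36, and Hibch rose at 0.72. The methionine, cysteine and pyrimidine partners had 6 of 13 lower and 0 higher, led by the sulfide-oxidising enzymes Ethe1 at -1.67 and Sqor at -1.59 and by Pemt, which methylates phosphatidylethanolamine, at -0.90. Of 16 amino acid transporters, 6 fell and 1 rose, with Slc3a1 at -2.68, the glycine transporter Slc6a9 at 1.22 and the betaine carrier Slc6a12 at -1.14. Of 14 transcription factors and hormone receptors that act on these pathways, 2 fell and 2 rose. Atf4, a factor of the amino acid stress response, was at -1.02, Cebpa at -0.89 and Cebpb at 0.93.

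**Figure D4:**
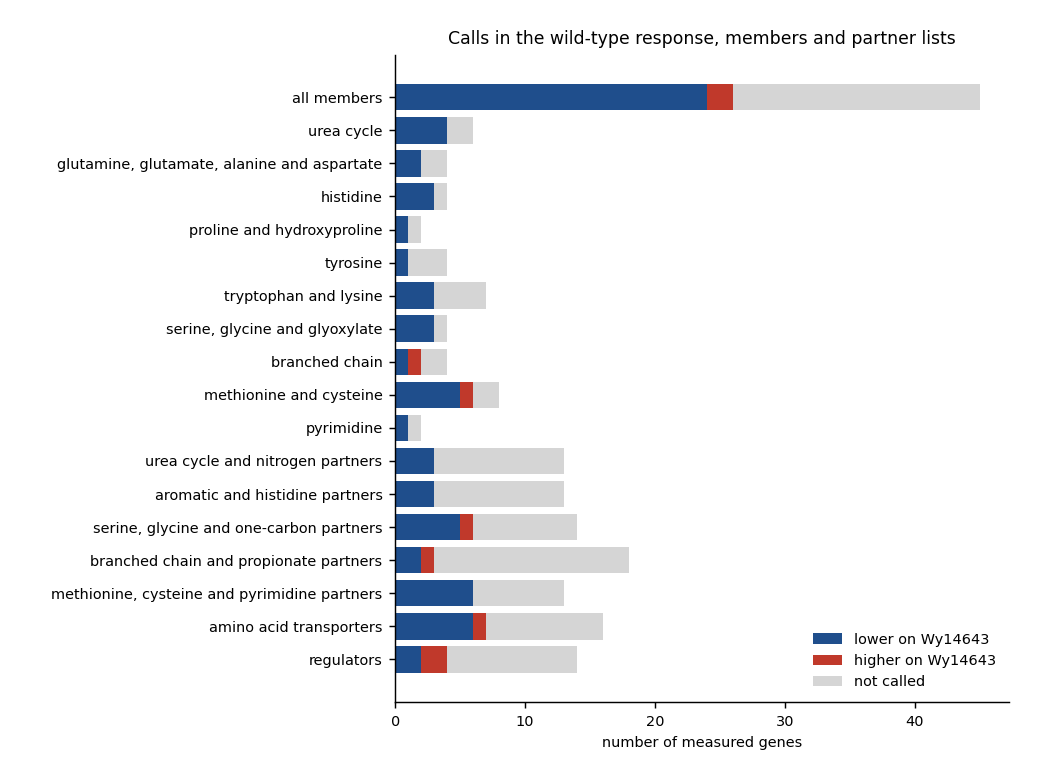
For all 45 measured members, for each member pathway and for 7 lists of related genes, bars give the number of measured genes (horizontal axis) called lower (blue), called higher (red) or not called (grey) in wild-type livers on Wy14643 against control food. Of all members 24 are blue and 2 red, and among the related lists the methionine, cysteine and pyrimidine partners hold 6 blue of 13.

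In whole liver, fewer cells of a type and less RNA per cell cannot be told apart, and markers of cells moved as well. The summed intensity of 8 hepatocyte markers was 66725 to 69301 in treated WT livers and 81272 to 84090 in WT controls, with 2 of 8 markers called lower. Of 8 periportal markers that are not members 5 were called lower, with sums of 9058 to 11901 against 15315 to 16120. Of 12 pericentral markers 5 were called lower, with sums of 18373 to 20226 against 27138 to 28732. The pericentral markers Glul, Oat and Slc1a2 are also in the lists of related genes above, and Sox9 is both a periportal and a cholangiocyte marker. Kupffer cell markers had 10 of 14 lower, with sums of 926 to 1190 against 1622 to 1877. Stellate cell markers had 4 of 12 lower, with sums of 1572 to 1758 against 2372 to 2582. Endothelial markers had 2 of 12 lower and 1 higher, with sums of 806 to 952 against 1039 to 1184. Cholangiocyte markers had 1 of 7 lower, with sums of 84 to 109 against 233 to 401. Their median log2 difference was 0.12 and the lowest -1.99, so the fall of the sum was not one of the whole list. In treated WT livers 5 of the 7 had means at or below the highest array median. The KO sums were 164 to 226 on Wy14643 and 282 to 377 on control food. Lymphocyte markers had 0 of 9 lower, with sums of 52 to 58 against 55 to 67, and 5 of the 9 had means at or below that median in both groups. Over all genes 6.74% were called lower and 7.72% higher, and 15.9% and 12.4% among those with a mean log2 above 6. No marker list was tested against these shares. The part of these cell markers in the falls of the amino acid genes was not tested.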

How the data were processed

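Liver RNA from 16 mice was hybridised to 1 array each. The deposited intensity values were made by the authors with GCRMA (version 2.20 in the submitters' processing notes), which corrects background by probe sequence, normalizes between arrays and summarises each probe set; they are on a linear scale, as the values show, and were taken to log2 here. GCRMA compresses low values, so dim probe sets are less reliable. After 64 control probe sets had been removed, 45037 entered limma (3.58.1, R 4.3.3) with 1 mean per group, lmFit and eBayes, and Benjamini-Hochberg adjustment over all of them. A call needs an adjusted p under 0.01 and a fold over 1.5. Of the probe sets, 34945 had 1 gene in the platform annotation, 932 several and 9160 none; 34741 were matched to RefSeq by identifier. A bright probe set listed for Ass1 together with another gene was not used. The script was tested on simulated data.

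Members were chosen by name, and members, partner lists and marker lists were chosen with earlier results of these data known. Array values are given for members called in the WT response or between genotypes on Wy14643, and for partner lists up to 3 called genes with the largest responses. The background among genes with a mean above 6 was chosen after the values were seen. The same holds for the motif letters, mismatch limits, 250-base window and promoters printed. Shares set beside that background are description only, and none of these was tested. Promoters were found for 35 of 45 measured members. Filters, offset, normalization, weights, moderation, block, thresholds, probe set rule and single arrays were varied.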

Additional observations from a re-analysis of the deposited data

Results flagged for a closer look

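Among 180 sets of 4 arrays (45 members in 4 groups), 11 held an array that stood far from the other 3 by Dixon's criterion, which chance meets in about 1 set in 20. Asl read 10.16 in replicate 4 of the WT livers on Wy14643 and 9.43 to 9.49 in the other 3. Arg1 read 12.87 in replicate 4 of the WT livers on Wy14643 and 12.68 to 12.70 in the other 3. Hal read 9.97 in replicate 4 of the KO livers on Wy14643 and 10.59 in each of the other 3. Prodh2 read 9.43 in replicate 2 of the KO livers on Wy14643 and 9.32 to 9.33 in the other 3. Aass read 9.99 in replicate 1 of the WT livers on Wy14643 and 10.31 to 10.37 in the other 3. Gcdh read 10.31 in replicate 3 of the KO livers on Wy14643 and 9.96 to 10.00 in the other 3. Agxt read 8.89 in replicate 4 of the WT livers on Wy14643 and 9.36 to 9.39 in the other 3. Agxt read 10.91 in replicate 4 of the KO livers on control food and 11.14 to 11.17 in the other 3. Dbt read 8.49 in replicate 2 of the KO livers on Wy14643 and 8.79 to 8.85 in the other 3. Bckdk read 3.61 in replicate 4 of the KO livers on control food and 4.02 to 4.07 in the other 3. Dpys read 10.78 in replicate 4 of the KO livers on Wy14643 and 10.94 to 10.97 in the other 3.

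For 23 members the response to Wy14643 differed between genotypes in the limma interaction, given as the WT log2 response minus the KO log2 response with its adjusted p. The WT response was higher only for Csad among the 45 members (2.64, limma adjusted p = 2.45e-07). In limma, the most negative differences were those of Prodh (-2.62, adjusted p = 7.13e-09), Hal (-2.40, adjusted p = 1.94e-07), Otc (-2.35, adjusted p = 2.08e-08), Cbs (-2.03, adjusted p = 4.92e-08), Asl (-1.67, adjusted p = 1.61e-05), Gnmt (-1.47, adjusted p = 9.11e-08), Got1 (-1.45, adjusted p = 0.0015) and Agxt (-1.44, adjusted p = 9.08e-06). In the same limma fit they were followed by Cth (-1.43, adjusted p = 3.53e-06), Cdo1 (-1.27, adjusted p = 1.52e-05), Amdhd1 (-1.06, adjusted p = 0.000724), Dbt (-1.04, adjusted p = 6.32e-05), Haao (-1.04, adjusted p = 3.74e-05), Fah (-0.98, adjusted p = 2.48e-06) and Bhmt (-0.96, adjusted p = 9.90e-05). The smallest differences to pass in limma were those of Afmid (-0.94, adjusted p = 0.00029), Cps1 (-0.89, adjusted p = 8.93e-05), Gpt (-0.89, adjusted p = 0.0014), Kynu (-0.87, adjusted p = 0.00144), Ftcd (-0.79, adjusted p = 0.000699), Dpyd (-0.70, adjusted p = 0.000106) and Ahcy (-0.63, adjusted p = 0.000574). Each rests on 4 arrays per group.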

How the results depend on the processing

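The calls were recomputed under 12 other settings and with each of the 16 arrays left out in turn, following the 76 member results called in the 5 comparisons; 42 kept their call throughout and 0 of the 76 changed direction. A limma treat test, which asks for evidence of a fold above 1.5 rather than of any change, ended 33 calls: it left 1 member higher and 18 lower in the WT response, where the falls of Nags, Gpt, Ftcd, Afmid, Agxt2 and Dpyd lost their call, 1 higher and 13 lower between genotypes on Wy14643, 0 lower on control food and 9 lower in the interaction. The mean of all probe sets of a gene ended 7 calls, of Afmid, Kynu and Dpyd, each with at least 1 dim extra probe set. Keeping only probe sets with a mean log2 above 6 dropped Bckdk, leaving 1 member higher in the WT response and 1 between genotypes on Wy14643, and an offset of 16 before log2 also left 1 there. On control food, where Csad was called, 0 members were lower with the offset, with only the arrays compared, and with the replicate number as a block, and the count was 0 to 1 when single arrays were left out, with the call lost without each WT control array in turn and without KO control replicate 2, 3 or 4. Without KO_Wy replicate 1, 2 members were higher in the interaction in place of 1, so that the range was 1 to 2. Centring each array on its median moved the median of all genes by at most 0.04 and ended the Agxt2 call in the WT response. The replicate numbers were not used as pairs: over 24 pairs of arrays with the same number in different groups, deviations from the group means correlated at -0.12 to 0.19, and 6 of 16 arrays matched best with their own number. That block ended no call but that of Csad on control food. The number of arrays limits the precision, and the dim probe sets of Ass1 and Bckdk lie nearest to background.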
